A study of Mus musculus with 2 samples.

Results

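The genes described here are 10 enzymes that modify and crosslink collagen, taken by symbol from the 33696 genes listed for both libraries: the lysyl oxidases Lox, Loxl1, Loxl2, Loxl3 and Loxl4, the lysyl hydroxylases Plod1, Plod2 and Plod3, and the catalytic subunits of prolyl 4-hydroxylase, P4ha1 and P4ha2. All 10 had unique molecular identifiers (UMIs, the tags that count each captured transcript once) in both libraries. Collagen chains are hydroxylated on prolines and lysines in the endoplasmic reticulum, which stabilizes the triple helix and prepares certain lysines for crosslinking. Once the trimmed molecules assemble outside the cell, copper-dependent lysyl oxidases oxidize lysine and hydroxylysine side chains, and the products join neighbouring collagen or elastin molecules into a fibre that resists stretch and digestion. The balance between hydroxylation and crosslinking is a well-known feature of scar tissue, tendon and cartilage.

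Cells came from the distal hindlimb digits of wild type ICR mice, male and female pooled, whose middle phalanx (P2) had been amputated at postnatal day 3, a level at which digits normally heal by scarring. A bead carrying FGF8 (500 ng/µl) or bovine serum albumin (BSA, 0.1%) was put into the wound at postnatal day 7, and cells were taken 24 h later, at postnatal day 8. Each condition is 1 single-cell library made from 20 pooled digits (2 and 4) of 5 mice, so there is no replicate and no test, and the bead's agent cannot be told apart from the pool of animals, the dissection or the library. Outcome played no part in which digits went into a pool, and the paper considers it likely that some FGF8 digits would have failed to regenerate.

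The FGF8 library held 7249 cell barcodes and 124889213 UMIs, and the BSA library 3703 barcodes and 67739460 UMIs. After filters, 6715 and 3252 cells were kept, with medians of 12251 and 15377 UMIs per cell, and 4 of the kept barcodes were shared by the libraries. Levels are given as CPM, the UMIs of a gene per 1000000 UMIs of the cells summed, and libraries are compared as the log2 ratio of CPM, FGF8 over BSA. Every interval of a level, share or ratio is an exact 95% interval and covers counting error only. The pools differed in sex: of the cells that could be called, females made up 24.6% in FGF8 and 79.3% in BSA. They also differed in cell cycle transcripts: 60.5% of FGF8 and 28.6% of BSA fibroblast-like cells had a UMI of Mki67, Top2a, Birc5 or Cenpf. Such cells are called cycling below, which says only that they had that UMI: by the same call 30.4% and 8.23% of neutrophil-like cells (medians of 2403 and 3214 UMIs) and 26.8% and 15.7% of erythroid-like cells were cycling, and in fibroblast-like cells the median depth was 24440 and 27685 UMIs with the call and 13440 and 17661 without it. The part of either in the results was not tested beyond the values within each sex and each class of cells given below.

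Cell types were named from marker genes, and a name such as fibroblast-like says only that a cluster was highest for that list. Fibroblast-like cells numbered 3326 and 1714, with medians of 18606 and 20048 UMIs, and all 8 of their markers were detected in both libraries (summed 12022 CPM in FGF8 and 20493 CPM in BSA, mostly Col3a1). Loxl1 was itself among the 10 leading genes of that cluster, so its height there is partly how the cluster was found. Markers of other connective tissue cells were also found in this class. Tenocyte markers summed to 686 CPM in FGF8 and 578 CPM in BSA, with Thbs4 the most abundant (450.2 and 176 CPM), smooth muscle or pericyte markers to 444 and 540.5 CPM, osteoblast markers to 338 and 311 CPM and chondrocyte markers to 259.9 and 290.5 CPM. Erythroid markers, transcripts that fibroblasts do not make, summed to 1432 and 1538 CPM with Hbb-bs the most abundant. The part of these transcripts in the results was not tested. Other types came from a finer clustering: 142 and 66 chondrocyte-like, 284 and 187 smooth muscle or pericyte-like, 241 and 124 Schwann-like, 142 and 121 blood endothelial-like, 224 and 152 keratinocyte-like, 736 and 376 macrophage-like, 64 and 41 mast-like, 536 and 158 neutrophil-like and 613 and 83 erythroid-like cells in FGF8 and BSA.

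Several hydroxylase genes are textbook targets of hypoxia-inducible factor, whose binding sequence has the core ACGTG or GCGTG. Start-site sequences were available from RefSeq (build GRCm38.p6) for 5 of the 10 genes, Loxl4, Plod1, Plod3, P4ha1 and P4ha2, and all 5 held the core at least once, on either strand, in the 250 bases before the start site, against 38.6% of the 32851 start sites in the table. At least 3 matches were found in 6.58% of all start sites and in Plod3, P4ha1 and P4ha2. The 250 bases of these genes, chosen by that number of matches, are printed here 5′ to 3′ on the gene's strand. Capitals mark every match (CACGT and CACGC are the same cores read from the other strand). Plod3 lies at chr5:136986769-136987018, P4ha1 at chr10:59323046-59323295 and P4ha2 at chr11:54100674-54100923, all on the plus strand.
Plod3: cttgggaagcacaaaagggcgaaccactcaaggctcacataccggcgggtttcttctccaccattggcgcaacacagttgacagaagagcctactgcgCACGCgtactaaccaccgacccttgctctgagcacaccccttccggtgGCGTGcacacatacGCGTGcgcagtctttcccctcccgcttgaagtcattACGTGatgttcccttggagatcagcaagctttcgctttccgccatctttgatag
P4ha1: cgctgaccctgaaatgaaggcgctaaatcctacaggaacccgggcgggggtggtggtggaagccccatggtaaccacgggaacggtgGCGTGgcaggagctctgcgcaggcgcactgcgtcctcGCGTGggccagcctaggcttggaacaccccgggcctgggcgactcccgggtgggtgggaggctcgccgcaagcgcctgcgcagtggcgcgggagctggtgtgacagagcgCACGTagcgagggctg
P4ha2: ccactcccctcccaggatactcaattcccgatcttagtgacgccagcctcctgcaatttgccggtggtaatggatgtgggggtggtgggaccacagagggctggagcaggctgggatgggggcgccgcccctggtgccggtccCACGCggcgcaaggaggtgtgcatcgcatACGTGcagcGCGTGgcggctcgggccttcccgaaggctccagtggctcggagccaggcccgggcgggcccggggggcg
The matches nearest to the start site began 16 bases before it in P4ha1, 54 in Plod3 and 69 in P4ha2. A match is a description of the letters and not evidence of binding.

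Lox and Loxl1, the enzymes best known for crosslinking fibrillar collagen and elastin, were fibroblast genes in both libraries. Fibroblast-like cells held 94.9% of all Lox UMIs in FGF8 and 96.7% in BSA, while they held 67.7% and 65.3% of the UMIs of all genes. There Lox stood at 367 CPM (FGF8) and 627 CPM (BSA). Every other named type lay between 15.3 CPM (FGF8 blood endothelial-like) and 102 CPM (BSA chondrocyte-like). Neutrophil-like cells (74.1 and 77.2 CPM) and erythroid-like cells (36.3 and 31.0 CPM) should lack the gene, and among the other types only BSA chondrocyte-like cells lay above the neutrophil-like level, on 166 UMIs of which 118 lay in 1 cell. Without the top cell of each type the chondrocyte-like level in BSA was below the neutrophil-like one (42.5 CPM). Loxl1 was also highest in fibroblast-like cells, at 249.8 and 295 CPM, against 62.1 and 22.5 CPM in neutrophil-like and 20.1 and 28.9 CPM in erythroid-like cells. The next level in BSA was the 31.3 CPM of blood endothelial-like cells. After each cell had been thinned to 2000 UMIs, 44.0% of FGF8 and 55.0% of BSA fibroblast-like cells kept a Lox UMI (84.6% and 87.4% before thinning), compared with 10.4% and 8.11% of neutrophil-like cells and 5.85% and 2.60% of erythroid-like cells, whose median depth was 6983 and 18691 UMIs.

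Loxl2, which acts on the basement membrane collagen IV as well as on fibrillar collagen, was shared between fibroblast-like cells (125 CPM in FGF8, 155 CPM in BSA) and smooth muscle or pericyte-like cells (142 and 138 CPM). Loxl3 stood at 81.8 and 78.3 CPM in chondrocyte-like cells and at 44.5 and 22.8 CPM in fibroblast-like cells. After thinning to 2000 UMIs, 17.4% of chondrocyte-like cells kept a Loxl3 UMI in FGF8, against 7.09% of fibroblast-like cells, but in BSA 3.39% did (2 of 59 cells, interval 0.413–11.7%), against 4.30% of fibroblast-like and 6.67% of smooth muscle or pericyte-like cells, both inside that interval. Loxl4 was highest in chondrocyte-like cells, at 56.1 CPM in FGF8 and 117 CPM in BSA, against 4.78 and 6.0 CPM in fibroblast-like cells. The Loxl4 UMIs of chondrocyte-like cells came from 49 of 142 FGF8 cells and 22 of 66 BSA cells.

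Among the lysyl hydroxylases, Plod2, which hydroxylates the telopeptide lysines that give scar-type crosslinks, was highest in chondrocyte-like cells (419 CPM in FGF8, 576 CPM in BSA), followed by fibroblast-like cells (140.4 and 131 CPM) and Schwann-like cells (81.7 and 81.4 CPM), and reached 14.2 and 7.82 CPM in macrophage-like cells. Plod1 and Plod3, which act on lysines of the helix (Plod3 also adds glucose to hydroxylysine), were spread more evenly. Plod1 was highest in Schwann-like cells (96.2 and 92.2 CPM), but blood endothelial-like cells (80.3 and 81.7 CPM) and, in BSA, chondrocyte-like cells (85.6 CPM) had intervals that overlapped with it. Plod3 was near 50 CPM in fibroblast-like (58.3 and 47.3 CPM), chondrocyte-like (52.3 and 53.8 CPM) and blood endothelial-like cells (49.2 and 44.2 CPM), with overlapping intervals in both libraries.

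P4ha1 was highest in chondrocyte-like cells (464 CPM in FGF8, 521 CPM in BSA) and was also found outside connective tissue cells. Macrophage-like cells had 106 and 98.3 CPM, and neutrophil-like cells 149 and 162 CPM, against 9.08 and 26.8 CPM in erythroid-like cells. Thinned to the same depth, 20.9% of FGF8 and 16.9% of BSA neutrophil-like cells kept a P4ha1 UMI, close to the 21.7% and 20.6% of fibroblast-like cells, and 1.67% and 3.90% of erythroid-like cells did. P4ha2 was highest in chondrocyte-like cells (118 and 168 CPM), then in fibroblast-like cells (66.5 and 84.4 CPM). Schwann-like cells had 34.0 and 53.6 CPM of it, mast-like cells 46.4 and 17.3 CPM on 16 and 6 UMIs, and macrophage-like cells 8.69 and 7.40 CPM. The type with the highest level was the same in both libraries for 10 of 10 genes, although for Plod3, Plod1 and P4ha2 the next type was close. Fibroblast-like cells here are the 2 fibroblast-like clusters of the finer clustering, in which Plod3 was at 51.7 CPM and Loxl2 at 184 CPM in FGF8. With the wider fibroblast-like class, from which the fibroblast-like levels above come, the number was 8: in FGF8 Loxl2 was then highest in smooth muscle or pericyte-like cells and Plod3 in fibroblast-like cells. With each cell thinned to 2000 UMIs the number was 6, and Loxl3, Plod1, Plod3 and P4ha2 differed.

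**Figure D1:**
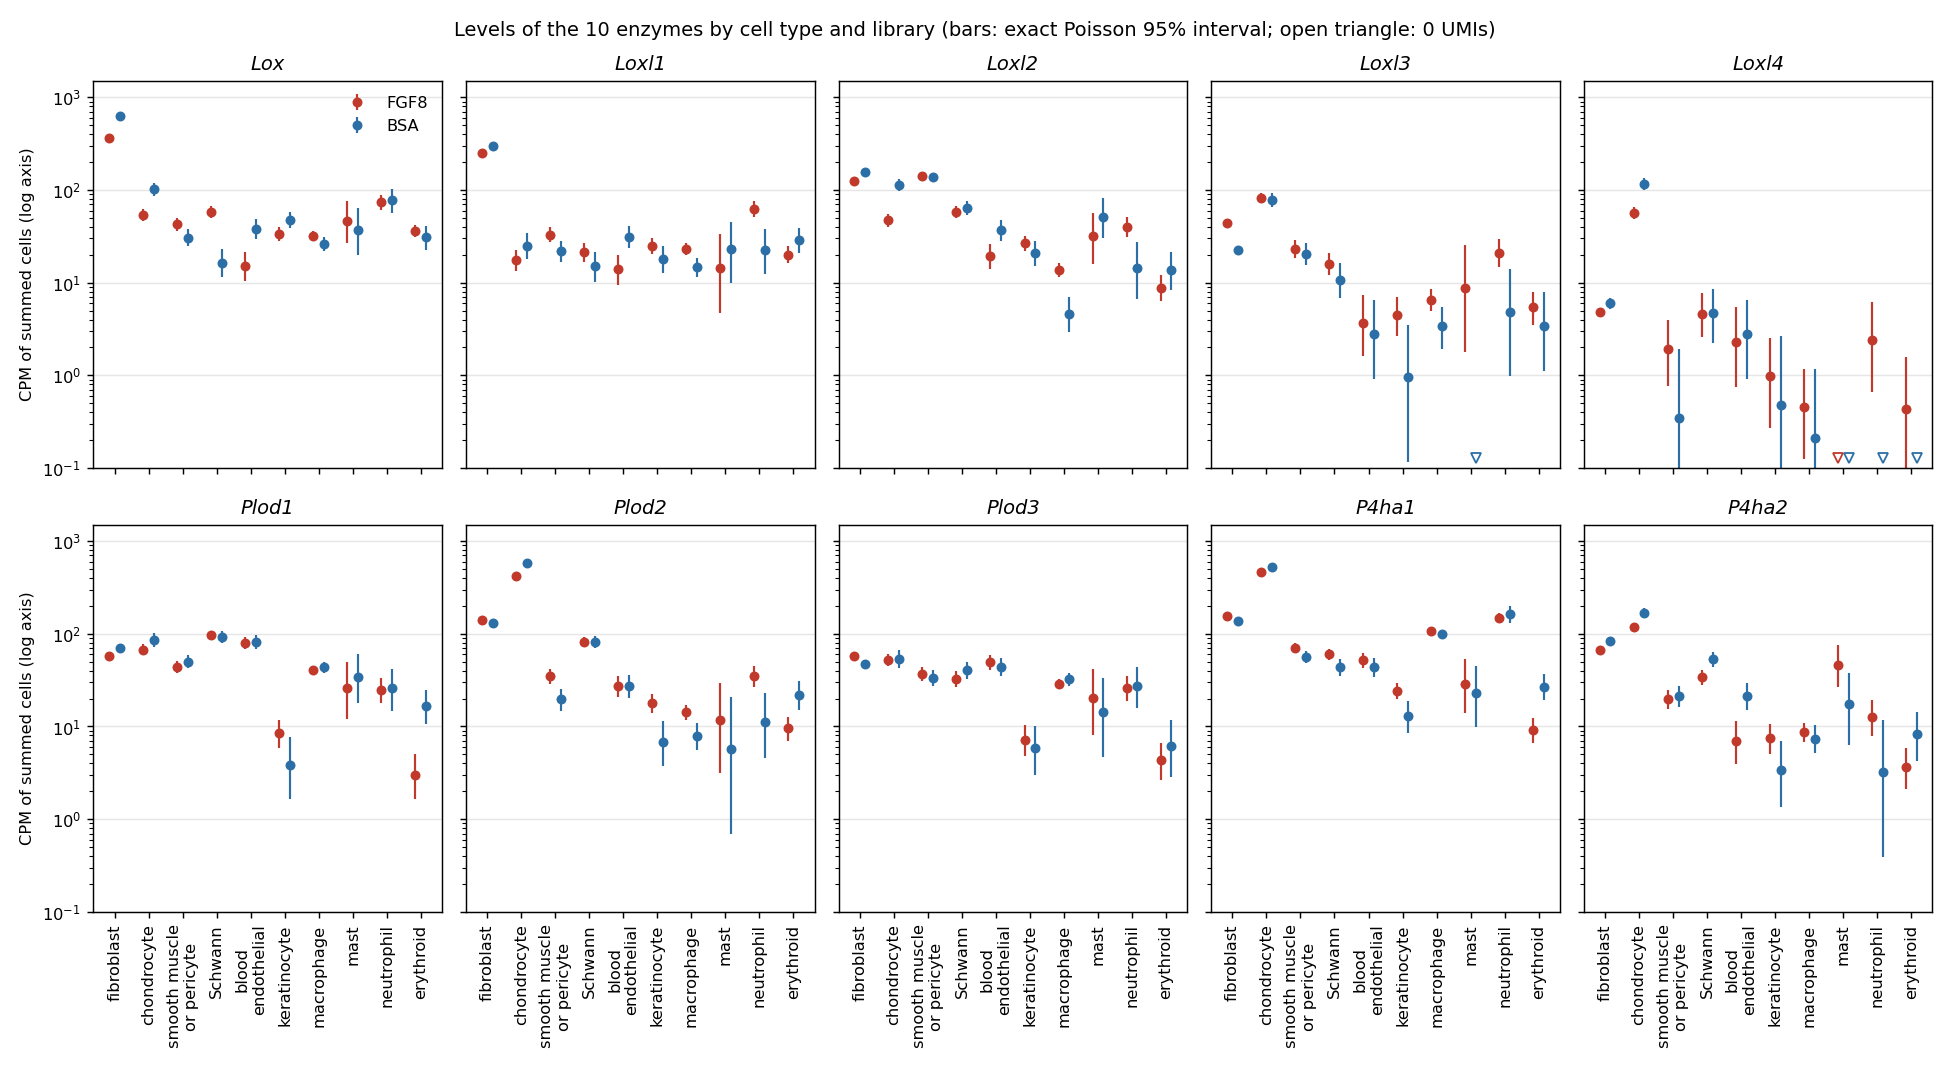
CPM (log axis) of each of the 10 enzymes in 10 named cell types, FGF8 library in red and BSA library in blue; points are values of the summed cells, bars exact Poisson 95% intervals and open triangles 0 UMIs. Lox and Loxl1 stand out in fibroblast-like cells, Loxl4, Plod2 and P4ha1 in chondrocyte-like cells, in both libraries.

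Because 3′ tags count transcripts whatever their length, the makeup of each family can be given as shares of its UMIs. In fibroblast-like cells Lox made up 56.7% (interval 56.2–57.2%) of lysyl oxidase UMIs in BSA and 46.4% (46.0–46.8%) in FGF8, while the share of Loxl1 was 26.7% in BSA and 31.6% in FGF8 and that of Loxl3 2.06% and 5.62%. The whole family stood at 1106 CPM in BSA and 792 CPM in FGF8. The lysyl hydroxylases summed to 248 CPM in BSA and 256 CPM in FGF8, and the prolyl hydroxylase subunits to 220.1 and 222 CPM, so the totals of these families were close in both libraries. Within the latter pair, P4ha1 made up 61.7% (60.6–62.7%) in BSA and 70.1% (69.4–70.8%) in FGF8. Smooth muscle or pericyte-like cells had another makeup, with Loxl2 at 58.4% (FGF8) and 65.2% (BSA) of lysyl oxidase UMIs, and in chondrocyte-like cells the largest shares were 31.9% (Loxl3 in FGF8) and 26.9% (Loxl4 in BSA).

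The comparison of the libraries asks whether an FGF8 bead goes with another set of crosslinking enzymes in the wound fibroblasts. Of the 10 genes in fibroblast-like cells, 4 had a ratio above 0 (44.1% of the 20053 genes with at least 10 UMIs did) and 6 a ratio below 0 (55.9% of genes). Only Loxl3 lay above 0.5, as did 15.5% of genes, and only Lox below −0.5, as did 19.2%. The median of the 10 was −0.26, and that of all genes −0.07. Without cycling cells the median of the 10 was 0.08, and with the fibroblast-like clusters at resolution 0.2 it was 0.03. The shares are near those of all genes, and so are not a result about the enzymes as a group.

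Lox was lower in the FGF8 library, at 367 CPM against 627 CPM, a log2 ratio of −0.77 (−0.80 to −0.75) or 1.71-fold, and 9.65% of genes had a lower ratio. Loxl3, a lysyl oxidase needed for palate and spine formation, was higher, at 44.5 CPM against 22.8 CPM, a ratio of 0.96 (0.85 to 1.08), and 93.1% of genes had a lower ratio. Within 1 family, these members lay on opposite sides of 0. The size of both depends on how widely fibroblast-like cells are drawn: with the class of a finer clustering (resolution 0.2), whose next cluster, led by Prg4 and Ptgis with Thbs4 among its leading genes, is left out, the ratio of Lox was −0.39 and that of Loxl3 0.18. When subclusters were given the same weights in both libraries, the ratios were −0.43 and 0.59.

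The other lysyl oxidases were slightly lower in FGF8: Loxl1 at 249.8 against 295 CPM (ratio −0.24, −0.28 to −0.21), Loxl2 at 125 against 155 CPM (−0.30, −0.35 to −0.25) and Loxl4 at 4.78 against 6.0 CPM (−0.33, −0.58 to −0.07). Loxl4 rested on 334 and 213 UMIs, and its ratio was 0.26 without cycling cells. Of the hydroxylases, Plod3 (58.3 against 47.3 CPM, ratio 0.30), P4ha1 (156 against 136 CPM, 0.20) and Plod2 (140.4 against 131 CPM, 0.10) were higher in FGF8. Plod1 (57.5 against 69.7 CPM, ratio −0.28) and P4ha2 (66.5 against 84.4 CPM, −0.34) were lower. The subunits P4ha1 and P4ha2, alternative partners of the same beta subunit, thus lay on opposite sides of 0, with intervals of 0.15 to 0.25 and −0.41 to −0.28.

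The sexes bear on which of these ratios hold within like cells. Lox had a ratio of −0.92 (−0.97 to −0.87) among female-called cells (325 CPM in FGF8, 615 CPM in BSA) and of −0.78 (−0.82 to −0.73) among male-called cells (378 and 646 CPM). Loxl3 had ratios of 0.92 (45.1 and 23.8 CPM) and 1.13 (44.4 and 20.3 CPM). Both members therefore differed the same way in each sex, and BSA male-called cells numbered 296. Plod2 and P4ha1 did not keep their direction: each had a ratio of −0.08 among female-called cells, with intervals reaching 0.01 and 0.00, and ratios of 0.35 (0.24 to 0.46) and 0.38 (0.28 to 0.49) among male-called cells. Of the 10 genes, 2 (Loxl3 and Plod3) were above 0 among female-called cells, as were 42.8% of all genes with at least 10 UMIs, and 4 among male-called cells, as were 44.9%.

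Several ratios differed between cycling and other cells. Lox was lower in cycling than in other fibroblast-like cells of the same library (296 against 569 CPM in FGF8, 463 against 728 CPM in BSA), and its ratio of FGF8 over BSA was −0.65 among cycling and −0.35 among other cells. Loxl3 had ratios of 0.86 and 0.56. Plod2 was on both sides of 0, at −0.31 (146 and 181 CPM) among cycling cells and 0.31 (123 and 99.9 CPM) among the others, so the pooled ratio of 0.10 describes neither. P4ha2 and Plod1, lower in FGF8 in the pooled cells, had ratios of −0.39 and −0.49 among cycling cells, and among the others P4ha2 was at 89.5 and 89.3 CPM and Plod1 at 64.9 and 65.0 CPM.

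**Figure D2:**
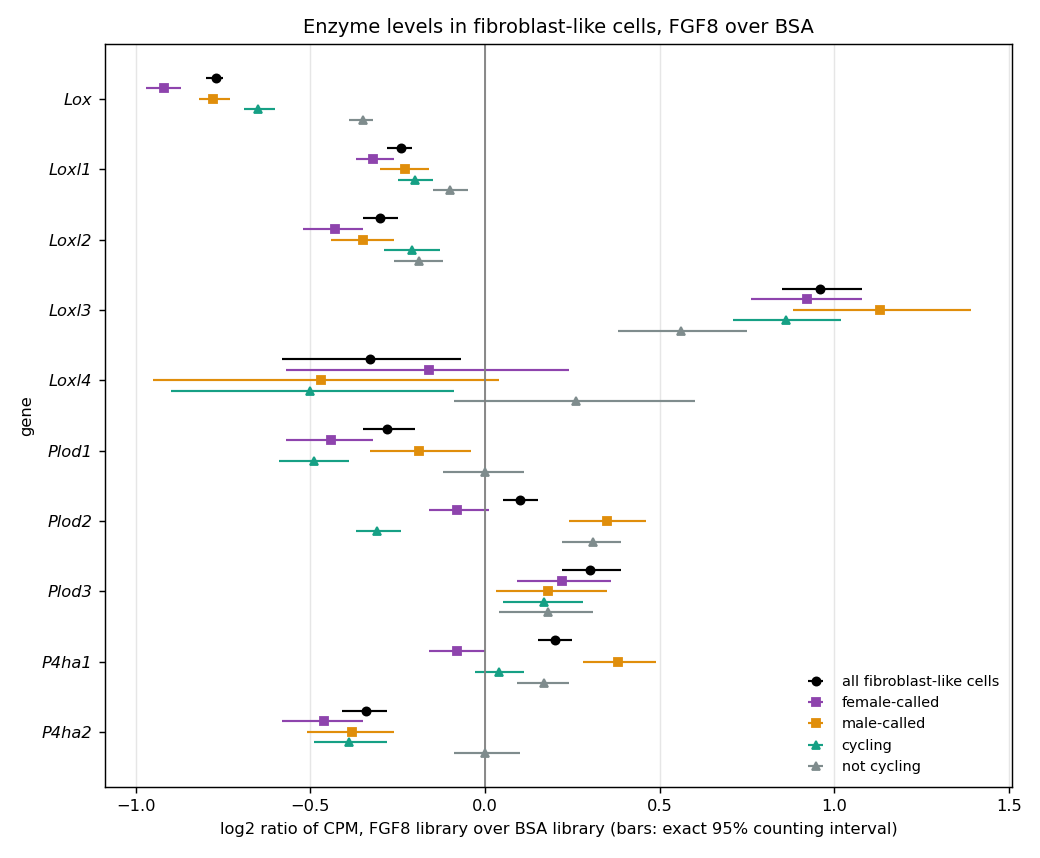
Log2 ratio of CPM, FGF8 over BSA, of each enzyme in all fibroblast-like cells (black), in female-called and male-called cells (squares) and in cycling cells, those with a UMI of Mki67, Top2a, Birc5 or Cenpf, and other cells (triangles), with exact 95% counting intervals. Lox lies below 0 and Loxl3 above 0 in all 5 sets of cells, while Plod2 falls on both sides.

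Re-clustering the fibroblast-like cells gave 6 subclusters. The enzymes, the lists used here, X- and Y-linked genes and the genes the paper reports as up- or downregulated in FGF8 fibroblasts were left out. Subcluster 0 was led by Chodl and Nrg1, subcluster 1 by Prg4, Mmp3 and histone genes, subcluster 2 by the tendon genes Fmod, Comp and Kera, subcluster 4 by Lpl and Dlk1, and subcluster 5 by Ednrb and Sox18. Subcluster 3 had few UMIs (medians 2536 and 2823) and was led by Lars2 and Camk1d. Subcluster 1 made up 29.2% of FGF8 and 14.1% of BSA fibroblast-like cells and had the most cycling cells (94.6% and 71.1%). It also had low Lox, at 200.2 CPM in FGF8 and 310.2 CPM in BSA, compared with 738 and 891 CPM in subcluster 0.

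Within these subclusters the Lox ratio was below 0 in 6 of 6, from −0.68 (459 and 736 CPM, subcluster 4) to −0.16 (97.6 and 109 CPM, subcluster 5, interval −0.57 to 0.26). Loxl3 was above 0 in 6 of 6, from 0.18 (22.6 and 19.9 CPM, subcluster 4, interval −0.15 to 0.52) to 1.06 (63.2 and 30.3 CPM, subcluster 1). Its other intervals that stayed above 0 were those of subclusters 0, 2 and 3, at ratios of 0.36, 0.31 and 0.81. Subclusters made with all variable features, also 6, gave Lox below 0 in 5 of them (ratios −0.60 to 0.38) and Loxl3 above 0 in 6 (0.15 to 0.91). Subcluster 1 held 2142 of the 3110 Loxl3 UMIs of FGF8 fibroblast-like cells and 234 of 810 in BSA. Split further by sex, 10 sets of cells had at least 20 cells in each library: Lox was lower in FGF8 in 10 of them (ratios −1.20 to −0.30), Loxl1 in 9, and Loxl3 was higher in 8 (ratios −0.21 to 1.80). These sets come from the same libraries and are not replicates.

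Plod2 varied in level among fibroblast-like subclusters. It was highest in the tendon-gene subcluster 2 (268 CPM in FGF8, 241 CPM in BSA) and lowest in subcluster 0 (42.1 and 34.1 CPM). Its ratio was −0.61 (−0.68 to −0.53) in subcluster 1, at 156 against 238 CPM, and above 0 in the other 5, up to 0.56 in subcluster 4 and 1.36 in the low-UMI subcluster 3. P4ha2 and Plod1 also had their lowest ratios in subcluster 1, of −0.73 (54.1 and 89.6 CPM) and −0.81 (52.6 and 92.2 CPM). With Lox, 4 of the 10 genes were below −0.5 in subcluster 1, as were 23.1% of its genes. P4ha1 was at −0.20 there (183 and 211 CPM) and at 0.35 in subcluster 4 (91.8 and 72.1 CPM). Within subcluster 1 its ratio was −0.59 (−0.71 to −0.47) among female-called and 0.07 (−0.10 to 0.24) among male-called cells. Plod3 was between 0.02 and 0.57 in the 6 subclusters (−0.33 to 0.42, above 0 in 5, with all variable features).

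**Figure D3:**
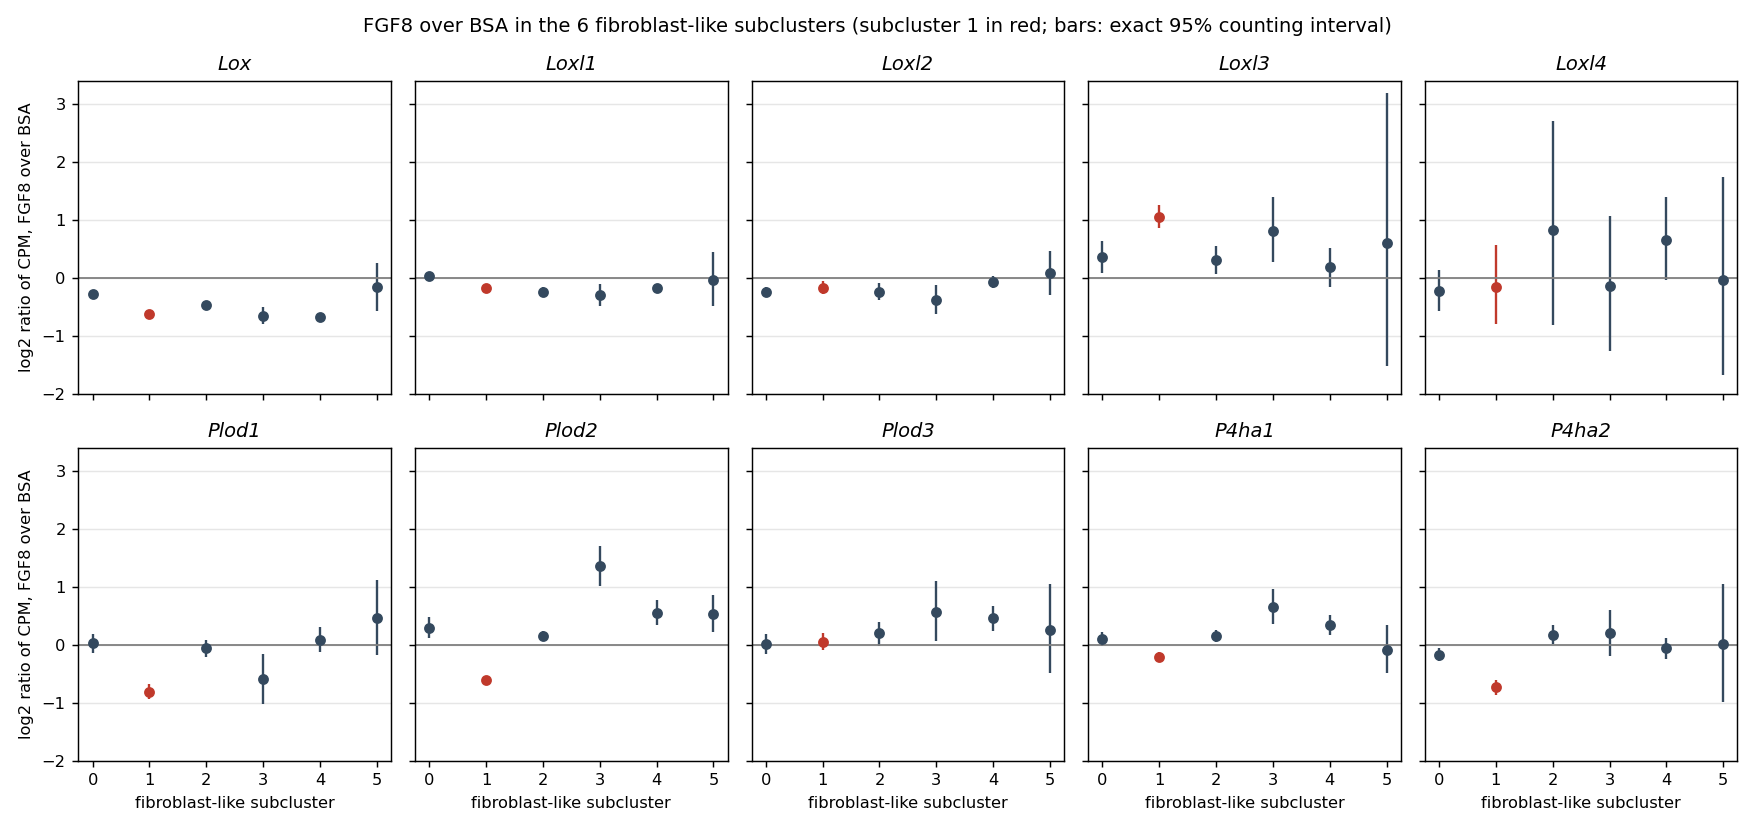
Log2 ratio of CPM, FGF8 over BSA, in the 6 fibroblast-like subclusters, 1 panel per enzyme, with exact 95% counting intervals; subcluster 1, led by Prg4 and histone genes, is in red. Plod1, Plod2 and P4ha2 have their lowest ratio in subcluster 1, where Loxl3 has its highest.

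In chondrocyte-like cells 9 of 10 genes had a ratio below 0 (53.1% of the 12128 genes with at least 10 UMIs did) and 5 an unrounded ratio below −0.5 (20.4% of genes). Plod2 was at 419 CPM in FGF8 and 576 CPM in BSA (ratio −0.46, −0.58 to −0.34), P4ha2 at 118 and 168 CPM (−0.50, −0.73 to −0.27) and P4ha1 at 464 and 521 CPM (−0.17, −0.29 to −0.04). Loxl2 was at 47.3 and 113 CPM (−1.25, −1.57 to −0.93) and Loxl4 at 56.1 and 117 CPM (−1.06, −1.36 to −0.76). These rest on 142 and 66 cells, of which 41 and 41 were female-called and 80 and 14 male-called, so the sexes were unequal here too. Loxl2 had a ratio of −1.65 (41.4 and 129.7 CPM) among female-called and 0.03 (53.4 and 52.3 CPM, interval −0.74 to 0.89) among male-called cells, and Loxl4 −1.38 and −0.47 (−1.11 to 0.21). P4ha1 was at −0.50 and −0.09 (−0.33 to 0.15) and P4ha2 at −0.84 and −0.23 (−0.69 to 0.25). Plod2 was at −0.73 and −0.61, with both intervals below 0. Among male-called cells the 10% of cells with the most Plod2 UMIs held 46.6% of them in BSA and 26.4% in FGF8. A single cell decided the value of Lox: of the 166 Lox UMIs in BSA chondrocyte-like cells, 118 (71.1%) lay in 1 cell, and without the top cell of each library the ratio of Lox was 0.69 in place of −0.92. For the other 9 genes the top cell held at most 23.2% of UMIs, and without the top cells 7 of 10 ratios were below 0 and 3 below −0.5.

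All 12 substrate genes were lower in FGF8 fibroblast-like cells, with a median ratio of −0.79. Of all 20053 genes, 55.9% were below 0, and their median was −0.07. The size varied with the cells: the substrate median was −0.91 among female-called and −0.41 among male-called cells. It was −0.93 in subcluster 1, −0.45 in subclusters 2 and 4, −0.36 in subcluster 3 and −0.23 in subcluster 0. In subcluster 5 it was 0.18, with 6 of 11 substrates above 0, as were 5787 of all 11174 genes with at least 10 UMIs. The fibrillar collagens Col1a1 (6228 CPM in FGF8, 13305 CPM in BSA, ratio −1.10), Col1a2 (6600 and 12119 CPM, −0.88) and Col3a1 (7092 and 12799 CPM, −0.85) were lower, as was elastin, Eln (1074 and 2040 CPM, −0.93). Minor fibrillar chains were also lower, with ratios of −0.78 for Col5a1, −0.66 for Col5a2, −0.80 for Col11a1 and −1.08 for Col11a2. The smallest ratios were those of Col5a3 (−0.06), Col2a1 (−0.18) and the basement membrane genes Col4a1 (−0.23) and Col4a2 (−0.27). Set against the UMIs of Col1a1, Col1a2, Col3a1, Col5a1 and Col5a2, the 10 enzymes together had 57.5 UMIs per 1000 in FGF8 and 37.7 in BSA, since collagen was at 22078 and 41754 CPM. The lysyl oxidases had 35.9 and 26.5 per 1000, the lysyl hydroxylases 11.6 and 5.94, and the prolyl hydroxylase subunits 10.1 and 5.27. The sum per 1000 was higher in FGF8 in each subcluster, at 37.8 and 30.5 in subcluster 0 and at 94.4 and 54.1 in subcluster 1. Collagen itself was lower in FGF8 in each subcluster (11565 and 25686 CPM in subcluster 1), so these values do not describe the enzymes alone. How other genes stood against collagen was not tested. In chondrocyte-like cells the sum per 1000 was 47.4 and 44.7, there with the UMIs of Col2a1 added to the collagen UMIs, so it is not on the same scale.

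The other genes of collagen processing, a list of 33 genes for hydroxylation, glycosylation, folding, secretion, cleavage, copper transport and collagen binding, had a median ratio of −0.25 in fibroblast-like cells, with 6 above 0 and 27 below. Of all 20053 genes, 44.1% were above 0 and 55.9% below. The beta subunit shared by the prolyl hydroxylases, P4hb, was at 448 CPM in FGF8 and 419 CPM in BSA (ratio 0.10), and the third catalytic subunit, P4ha3, at 63.4 and 68.3 CPM (−0.11). The collagen chaperones Serpinh1 (1017 and 1206 CPM, −0.25) and Fkbp10 (175 and 196 CPM, −0.16), the procollagen C-proteinase Bmp1 (100.5 and 129 CPM, −0.36) and its enhancer Pcolce (431 and 526 CPM, −0.29) were lower. The highest ratios were those of the second enhancer Pcolce2 (38.7 and 15.9 CPM, 1.28), of the Bmp1-like proteinases Tll2 (0.358 and 0.197 CPM, 0.86, interval −0.39 to 2.31) and Tll1 (35.2 and 24.9 CPM, 0.50), and of P3h2, a prolyl 3-hydroxylase (20.2 and 18.7 CPM, 0.11). The lowest were those of Fmod, a small proteoglycan that binds collagen (61.2 and 131 CPM, −1.10), the galactosyltransferase Colgalt2 (1.56 and 2.70 CPM, −0.79), the peptidyl prolyl isomerase Fkbp7 (135 and 224 CPM, −0.74) and Sparc (6540 and 10748 CPM, −0.72). Without cycling cells the median of the list was −0.07, with cells typed 1 by 1 −0.08 and with the fibroblast-like clusters at resolution 0.2 −0.03.

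A list of 12 hypoxia-responsive genes went the other way in fibroblast-like cells, with 10 above 0 (44.1% of all genes were) and a median of 0.55. Ankrd37 (14.4 and 8.42 CPM, 0.78), the angiogenic factor Vegfa (62.2 and 37.1 CPM, 0.75) and the glycolytic genes Ldha (556 and 331 CPM, 0.75) and Pgk1 (247 and 160.0 CPM, 0.63) were highest. Pdk1 (−0.20), Bnip3 (−0.04), Pfkfb3 (0.16) and Adm (0.19) were lowest. The median of this list was 0.29 among female-called and 0.64 among male-called cells. It was 0.04 in subcluster 1, and 0.27, 0.31, 0.66, 0.46 and 0.25 in subclusters 0, 2, 3, 4 and 5. In chondrocyte-like cells 4 of the 12 were above 0 and 8 below (53.1% of genes were below), with a median of −0.05.

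**Figure D4:**
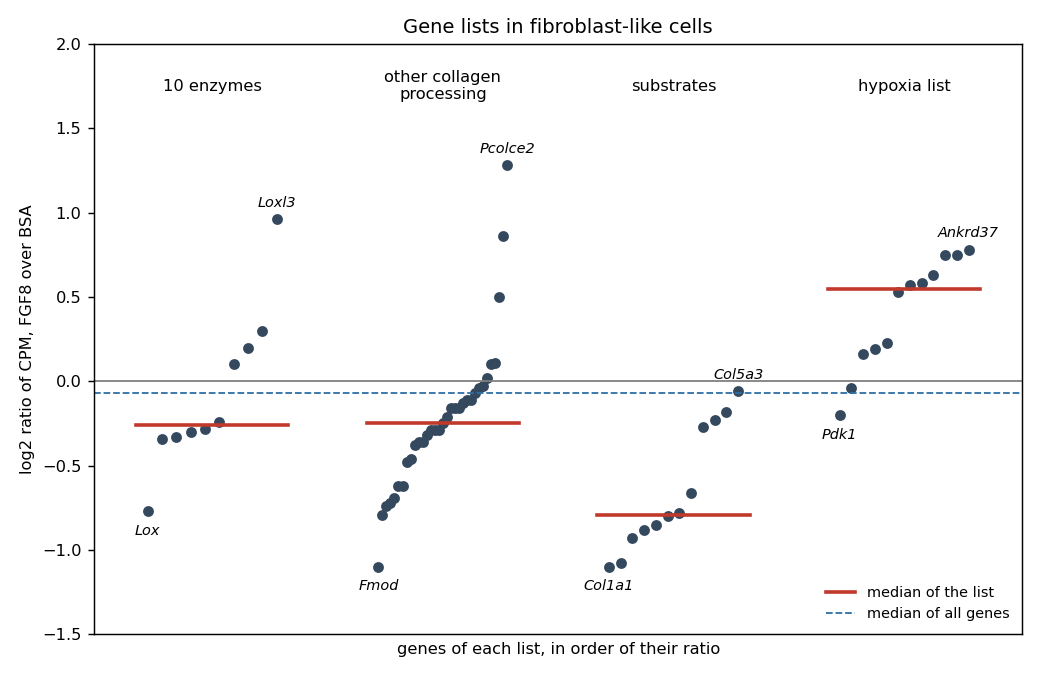
Log2 ratio of CPM, FGF8 over BSA, in fibroblast-like cells for the 10 enzymes, 33 other collagen processing genes, 12 substrates and 12 hypoxia-responsive genes; each point is a gene, red bars are list medians (−0.26, −0.25, −0.79 and 0.55) and the dashed line the median of all genes (−0.07). Col1a1 and Fmod reach −1.10, while the highest and lowest enzymes are Loxl3 and Lox.

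Across the clusters of the finer clustering taken in each library apart (38 points, CPM + 10 on a log2 scale, which share library and depth), Lox was most like Loxl1 (r = 0.96), the dermatopontin gene Dpt (0.96) and Mfap4 (0.95), among 13851 genes compared. Loxl1 was most like Lrrc17 (0.97) and Medag (0.97), Loxl2 like Sdc2 (0.95), Col6a3 and Col6a2 (0.93 each), and Loxl3 like Gpc6 (0.89), Vasn (0.88) and Smoc2 (0.87). Loxl4 was closest to the predicted gene Gm13944 (0.94), Bmp6 (0.89) and Mdfi (0.88). Plod2 was closest to the cartilage genes Col11a1 (0.90) and Acan (0.89), then to Slc39a14 (0.86). Plod1 was closest to Fam3c (0.91), Cyp20a1 and Plod3 (0.88 each), and Plod3 to Colgalt1 (0.91), Ckap4 (0.90) and Mcfd2 (0.89), of which Colgalt1 adds galactose to the hydroxylysines that the enzymes make. P4ha1 was closest to Chsy1 (0.87), Ugp2 (0.87) and Vegfa (0.85), and P4ha2 to Tnc (0.89), Emilin1 (0.89) and Col27a1 (0.88). Among the enzymes themselves the least alike were Loxl1 and Loxl4 (0.14).

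In GENCODE vM39, genes on the opposite strand overlap 7 of the 10 enzymes, among them Htra2 at Loxl3 and Znhit1 at Plod3, and microRNA genes lie on the same strand within Loxl2, Loxl3 and Plod3. Loxl3 lies at chr6:83011152-83029543 of GRCm39 on the plus strand. The 3′ kit keeps the strand of each read, and Plod1, P4ha1 and P4ha2 have no overlapping annotated gene.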

How the data were processed

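The authors captured cells with 10x 3′ chemistry (v3.1), aligned reads to GRCm39 and deposited raw UMI counts per gene and barcode from Cell Ranger 9.0.0, before the filters of the study's methods. Cells with more than 200 and fewer than 7500 genes and under 15% mitochondrial UMIs were kept, following those methods, and clustered in R 4.3.3 by sctransform 0.4.2 within Seurat 5.3.0 (CCA integration, 30 components, resolution 0.05 for fibroblast-like cells and 0.5 for other types, seed 42). Fibroblast-like cells were re-clustered at 0.2 on 2634 of 3000 variable features. Left out were the enzymes, the lists, X- and Y-linked genes and the genes the paper reports as up- or downregulated in FGF8 fibroblasts. A cluster got no name if under 3 of its markers were detected, if it had few UMIs or if genes of another type led it; rules beyond the marker lists were set after seeing the data. Cell types here are rebuilt and may differ from the study's. No doublet caller was run; the limit of 7500 genes and an alternative without the 5% of cells with the most UMIs stand in for one. Cells were called female or male from Xist and 4 Y-linked genes.

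UMIs were summed per library and cell group in Python 3.11.15 (numpy 2.4.6, scipy 1.17.1, pandas 2.3.3, matplotlib 3.10.9). Log2 ratios have exact conditional 95% intervals, CPM exact Poisson and shares Clopper-Pearson intervals. List medians cover genes with 10 or more UMIs in all. Genes named are all 10 enzymes, all substrates, the 4 highest and 4 lowest of the other lists, 6 chosen processing genes and the 3 most alike genes per enzyme. With 1 library per condition there was no test. The interval was tried on simulated counts over 20053 genes for the fibroblast-like comparison and covered the true ratio for 97.5% of 200 changed genes. Those counts were drawn with counting error alone, as the interval assumes. The coverage therefore checks the calculation only, and not the spread between cells, animals or libraries. The enzymes and lists were chosen with earlier results of these data known. Alternatives were other cell filters, depths, weights, cell types, centring, each sex, and no cycling cells; those without the top cell and without subcluster 3 were added after seeing the data.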

Additional observations from a re-analysis of the deposited data

Results flagged for a closer look

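Several ratios of FGF8 over BSA had intervals on opposite sides of 0 in 2 groups of cells. None of these differences was tested. Lox, at −0.77 in fibroblast-like cells, had a ratio of 0.48 (0.09 to 0.87) in smooth muscle or pericyte-like cells, a difference of −1.25 (without the top cell of each library the ratio was 0.27, −0.14 to 0.70, at 34.0 and 28.1 CPM), and of 1.81 (1.28 to 2.37) in Schwann-like cells, a difference of −2.58. In FGF8 Schwann-like cells 99 of the 186 Lox UMIs lay in 1 cell, and without the top cell of each library the Schwann-like ratio was 1.07 (27.2 and 12.9 CPM), levels below the 36.3 and 31.0 CPM of erythroid-like cells, which should lack Lox. Loxl1 (−0.24 in fibroblast-like cells) was at 0.59 in smooth muscle or pericyte-like cells (33.1 and 22.0 CPM), a difference of −0.83, and at 0.64 in macrophage-like cells, a difference of −0.88. Loxl2 (−0.30) was at 1.56 in macrophage-like cells on 120 and 22 UMIs, a difference of −1.86. These smooth muscle or pericyte-like levels of Loxl1 and the macrophage-like levels of Loxl1 (23.1 and 14.8 CPM) and Loxl2 (13.7 and 4.65 CPM) lay below those of neutrophil-like cells, which should lack the genes (62.1 and 22.5 CPM of Loxl1, 39.8 and 14.5 CPM of Loxl2). In erythroid-like cells, which should lack them too, the levels were 20.1 and 28.9 CPM (Loxl1) and 8.87 and 13.8 CPM (Loxl2). Without the top cell of each type, Loxl1 in BSA was at 19.4 CPM in smooth muscle or pericyte-like cells, above the neutrophil-like 13.6 CPM. In FGF8 it stayed below, at 29.5 against 56.7 CPM.

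Plod2 was at 0.10 in fibroblast-like and −0.46 in chondrocyte-like cells, a difference of 0.56, and P4ha1 at 0.20 and −0.17, a difference of 0.37. Between subclusters 3 and 1 the difference was 1.97 for Plod2 (1.36 and −0.61) and 0.86 for P4ha1 (0.66 and −0.20), and subcluster 3 had the fewest UMIs per cell. The P4ha1 ratio in subcluster 1 was −0.59 among female-called cells but 0.07 (−0.10 to 0.24) among male-called cells.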

How the results depend on the processing

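No paired analysis was possible because each condition is 1 library. The median ratio of the 10 enzymes in fibroblast-like cells, reported as −0.26, ranged from −0.26 to 0.08 over the 15 alternatives. All lay inside its order-statistic interval (−0.34 to 0.30). That interval reflects the spread of the 10 genes and spans 0, so it settles no direction. The median was above 0 without cycling cells (0.08) and with the fibroblast-like clusters at resolution 0.2 (0.03). The number of enzymes above 0, reported as 4, was 2 to 6 and was 2 among female-called cells. The ratio of Lox stayed below 0 (−0.92 to −0.35) and that of Loxl3 above 0 (0.18 to 1.13) under the same 15, as did Plod3 above 0 and Loxl1 and Loxl2 below. Signs turned for Plod2 and P4ha1 among female-called cells (−0.08 each), for Loxl4 without cycling cells (0.26) and with cells typed 1 by 1 (0.01), for Plod1 at resolution 0.2 (0.05), and for Lox (0.69) and Plod3 (from −0.04 to 0.01) in chondrocyte-like cells without the top cell of each library, where the numbers of enzymes below 0 and below −0.5 were 7 and 3 in place of 9 and 5. Ratios of 0.00 to 2 decimals were those of Plod2 with subclusters weighted to their BSA shares (where 3 enzymes were above 0), of Plod1 and P4ha2 without cycling cells and of Loxl4 at resolution 0.2. The processing list, at −0.25, kept its sign under 17 alternatives and was −0.07 without cycling cells, −0.08 with cells typed 1 by 1 and −0.03 at resolution 0.2. The number of enzymes with the same highest type, 10, was 6 after thinning to 2000 UMIs and 8 with the fibroblast-like class at resolution 0.05. The class at resolution 0.2 held 0.247% of the cells of subcluster 1, 0.381% of subcluster 2 and 9.39% of subcluster 3, against 82.8% or more of the others; the causes of the shifts were not tested. Depth limits most enzymes in mast-like and neutrophil-like cells, whose UMIs of all genes were few (344998 and 347309, 1659916 and 621617).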
